A study of Homo sapiens with 14 samples.

Results

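The guides described here target 11 genes of the PRDM family and number 77, 7 for each gene, out of 11364 guides in the whole library. They were chosen among the guides whose deposited gene name is PRDM followed by a number. The genes are PRDM1, PRDM2, PRDM4, PRDM6, PRDM8, PRDM9, PRDM10, PRDM12, PRDM13, PRDM15 and PRDM16. Each guide is called by its gene and its number in the deposited tables, so that PRDM16_3 is guide number 3 against PRDM16. The rule used gene names and no measured value.

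All libraries come from H9, an established human pluripotent stem cell line, in which doxycycline switches on Cas9, and all groups, day 0 included, carried the transcription factor guide library. The labels give the genotype of every library as WT, so the knockouts are those made by the guides in the pool. No unedited cells without the library were analysed here. The sources used here do not say whether the line is a single clone, or when doxycycline was given. Guide cassettes were amplified from genomic DNA and counted in 14 libraries. The day 0 group holds undifferentiated cells (2 libraries). The other groups, of 3 libraries each, were differentiated to cardiomyocytes in a 2D or a 3D system and sorted at day 25 into cells with (TNNT2+) and without (TNNT2-) cardiac troponin T, a protein of the cardiac contractile apparatus. The share of reads of a guide follows the share of cells that carry it, and a gain in 1 fraction cannot be told apart from a loss in the other. The libraries hold no expression values, so the sorted cell types could not be checked against marker genes, and whether each guide edited its target was not measured.

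PRDM proteins combine a PR domain, a relative of the SET domain of histone methyltransferases, with zinc fingers that bind DNA in most members. They act as transcriptional regulators of cell fate, some through their own methyltransferase activity and others by recruiting chromatin enzymes. PRDM16 is the member best known in the heart. It drives brown fat identity, and its loss in people is linked to left ventricular noncompaction and dilated cardiomyopathy. In RefSeq's GRCh38.p14 annotation PRDM16 spans chr1:3069203-3438621 and PRDM6 chr5:123089241-123194266. Guide sequences and cut positions are not used here.

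The deposited values are read counts divided by a size factor per library. Recovered totals lay between 22355936 and 31671019 reads. PRDM guides make up 0.678% of the library and took 0.565% ± 0.142 (SD, n = 2) of reads at day 0. In 2D the share was 0.643% ± 0.0197 (SD, n = 3) for TNNT2- cells, while TNNT2+ cells had 0.621% ± 0.0448 (SD, n = 3), and these libraries overlap. In 3D the share was 0.69% ± 0.0242 (SD, n = 3) for TNNT2- cells, whose 3 libraries (0.662% to 0.704%) all lay above the TNNT2+ libraries (0.598% to 0.659%; mean 0.638% ± 0.0343, SD, n = 3). This difference was not tested. Many single guides were lost from 3 libraries: 27 of the 77 PRDM guides had fewer than 10 reads in day 0 replicate 2. The number was 28 for replicate 3 of the 3D TNNT2- group and 38 for replicate 3 of the 3D TNNT2+ group. In the other 11 libraries between 0 and 5 did. These are 35.1%, 36.4% and 49.4% of PRDM guides, beside 32.5%, 27.6% and 43.6% of all guides. Of the PRDM guides, 19 were under 10 reads in both 3D libraries, and 12 in all 3 of these libraries. A further 3D library, TNNT2- replicate 2, had 11.1% of all guides under 10 reads, and it is counted with the other two 3D libraries as thin. Every result in 3D and against day 0 rests in part on these libraries, and the gene values without them are given with those comparisons.

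Levels are given in CPM, the reads of a guide per 1000000 reads of its library, where an average guide has 88 CPM. For the sum of a gene's guides, exact binomial 95% intervals were between 1.04% and 3.47% wide to either side of the value, and 8.07% for PRDM6 in day 0 replicate 2. They cover counting error only, since PCR reads are not independent molecules. Replicates differed by more. Across the 77 PRDM guides, Pearson's r of log2(CPM + 1) between replicates was 0.404 to 0.663 for 2D TNNT2- cells, and for the 2D TNNT2+ group it was 0.368 to 0.577. For 3D it was 0.218 to 0.478 in TNNT2- cells, with 0.252 to 0.519 for the 3D TNNT2+ group, and the day 0 pair gave 0.309. Guides of a library share its depth and composition, and guides against 1 gene share a target, so they are not replicates. The mean level over the 6 2D libraries ran from 10.7 ± 12 CPM for PRDM8_5 to 226 ± 79.6 CPM for PRDM1_1 (SD, n = 6).

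The 2D sort compares guides between troponin-negative and troponin-positive cells of the same cultures, to find factors whose loss alters the yield of cardiomyocytes. No PRDM gene passed. The gene value is the mean over a gene's guides of the log2 fold change, TNNT2- over TNNT2+, on the scale of log2(value + 10), with its standard error (SE) from limma. Of 11 genes, 0 passed an adjusted p of 0.05, against 0% of the 1621 genes tested (limma, Benjamini-Hochberg adjustment), and edgeR also called 0. The unadjusted p was under 0.05 for 1 gene, PRDM6, against 3.82% of all genes. Gene values ran from -0.44 to 0.71 with a median of 0.13, beside 0.045 over all genes, and 8 of 11 lay above 0, against 56.9% of all genes. The median SE of the PRDM genes was 0.30.

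PRDM16 had the lowest value of the family in 2D. Its guides summed to 503.0, 343.6 and 396.4 CPM in TNNT2- replicates 1 to 3 and to 428.8, 480.7 and 713.6 CPM in TNNT2+ replicates 1 to 3. The groups overlap, and TNNT2+ replicate 3 is the highest library. The log2 fold change was -0.44 ± 0.32 (SE; 95% interval -1.11 to 0.22; adjusted p = 0.963, limma), with 5 of 7 guides lower in TNNT2- cells. Within a replicate number the difference was 0.063, -0.50 and -0.90, so it was negative in replicate numbers 2 and 3 only. PRDM16_3 was lowest, at -1.20 ± 0.63 (SE). It had 35.4, 20.3 and 82.5 CPM in TNNT2- and 49.8, 115 and 121 CPM in TNNT2+ cells. PRDM16_7 had -0.92 ± 0.49, PRDM16_2 -0.58 ± 0.76, PRDM16_1 -0.48 ± 0.60 and PRDM16_5 -0.35 ± 1.27, while PRDM16_4 had 0.22 ± 0.39 and PRDM16_6 0.20 ± 0.72 (log2 fold change ± SE). With each 2D library left out the gene value stayed between -0.61 and -0.18, with no call.

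PRDM6, a repressor known from smooth muscle in mice, lay at the other end. Its guides summed to 725.8, 519.8 and 560.0 CPM in TNNT2- replicates 1 to 3 and to 336.6, 505.9 and 611.4 CPM in TNNT2+ replicates 1 to 3. These sums overlap, but the mean log2 values did not: they were 10.78, 10.29 and 10.39 in TNNT2- and 9.20, 9.99 and 10.15 in TNNT2+ libraries. The log2 fold change was 0.71 ± 0.30 (SE; 95% interval 0.074 to 1.34; unadjusted p = 0.0307, adjusted p = 0.963, limma). Its guides differed, with 5 of 7 higher in TNNT2- cells and a median of 0.18 ± 1.25 (SD over guides). PRDM6_2 had 3.15 ± 1.39 (SE), with 34.9, 48.6 and 23.7 CPM in TNNT2- and 0.995, 10.3 and 3.02 CPM in TNNT2+ cells. PRDM6_5 had 1.61 ± 0.61 (SE), with 199, 74.8 and 97.4 CPM against 15.6, 46.7 and 63.1 CPM. For both guides every TNNT2- library lay above every TNNT2+ library. The PRDM6 difference was 1.58 in replicate number 1 and 0.30 and 0.24 in numbers 2 and 3, and leaving out TNNT2+ replicate 1 brought the gene value from 0.71 to 0.41. With edgeR on all 6 libraries the PRDM6 value was 0.31.

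No single PRDM guide of the 77 passed in the 2D sort, against 0% of 11346 guides, with a smallest adjusted p of 0.986 (limma). The unadjusted p was under 0.05 for 5 guides, all higher in TNNT2- cells, against 1.67% of all guides in that direction and 1.67% in the other. Besides PRDM6_2 and PRDM6_5 these were PRDM2_3 at 1.39 ± 0.52, PRDM8_1 at 1.93 ± 0.73 and PRDM12_2 at 2.32 ± 0.94 (log2 fold change ± SE). The groups did not overlap for 9 of the 77 guides, 8 higher and 1 lower, against 4.41% of all guides in each direction.

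Among members with roles in the early embryo, PRDM1 (BLIMP1), which specifies germ cells and plasma cells, had a 2D sort value of 0.061 ± 0.23 (SE). PRDM15, a regulator of pluripotency in mouse embryonic stem cells, had 0.41 ± 0.22 (SE). PRDM15 guides summed to 896.7, 979.0 and 835.2 CPM in TNNT2- and 836.0, 915.6 and 736.4 CPM in TNNT2+ replicates 1 to 3. The groups overlap. The PRDM15 difference was 1.04 in replicate number 1, where PRDM15_6 had no read in TNNT2+ cells (which allows up to 0.13 CPM) and 46.0 CPM in TNNT2- cells, and was -0.048 and 0.24 in the others. Without TNNT2+ replicate 1 the PRDM15 value was 0.16, and with edgeR on all libraries it was 0.12.

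Of the members known from the nervous system, PRDM8, which acts with BHLHE22 in mouse cortical neurons, had 0.44 ± 0.38, PRDM12, required for pain-sensing neurons, had 0.10 ± 0.25, and PRDM13, a partner of PTF1A in inhibitory neuron fate in mice, had 0.17 ± 0.32 (log2 fold change ± SE). The PRDM8 difference was 1.55 in replicate number 2 and -0.062 and -0.15 in the others, and without 2D TNNT2+ replicate 2 the value was -0.043. In that pair PRDM8_3 had 38.3 CPM in TNNT2- and 0.129 CPM in TNNT2+ cells, and PRDM8_1 had 74.2 and 13.0 CPM. Only 3 of the 7 PRDM8 guides were higher in TNNT2- cells, and the sum of the guides lay slightly lower there (552.3 ± 117 against 578.6 ± 148 CPM, SD, n = 3). PRDM8 thus had a positive mean and a negative median (-0.15) over its guides.

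For PRDM12 a single guide stood apart from the other 6. PRDM12_2 had 65.4, 48.7 and 62.9 CPM in 2D TNNT2- and 8.31, 24.2 and 6.71 CPM in 2D TNNT2+ replicates 1 to 3. In 3D it had 21.4, 108 and 72.9 CPM in TNNT2- and 16.9, 0.673 and 0.0408 CPM in TNNT2+ replicates 1 to 3. All 6 TNNT2- libraries therefore lay above the TNNT2+ libraries of their system, and above the TNNT2+ library of the same number. Its log2 fold change was 2.32 ± 0.94 in 2D and 4.69 ± 2.93 in 3D (SE), with adjusted p of 0.986 and 1 (limma). The median over the PRDM12 guides was -0.043 in 2D and 0.22 in 3D, with 3 and 4 of its 7 guides above 0. PRDM2_5 had 63.4, 48.1 and 42.1 CPM in 2D TNNT2- cells, and 28.8, 21.8 and 21.0 CPM in 2D TNNT2+ cells. In 3D it had 77.1, 53.5 and 47.8 CPM in TNNT2- and 43.4, 34.4 and 0 CPM in TNNT2+ replicates 1 to 3. The 0 lies in a library with 49.4% of PRDM guides under 10 reads and allows up to 0.122 CPM. PRDM2_5 was the only other PRDM guide whose groups did not overlap, in the same direction, in both sorts (1.05 ± 0.78 in 2D and 2.90 ± 2.70 in 3D, SE). Both guides were singled out after their values were seen. These 2 guides are 2.6% of the PRDM guides, and 45 of 11330 guides in both fits (0.397%) did the same. Signs of the log2 fold change were the same in both sorts for 39 of 77 PRDM guides and for 50.6% of all guides.

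Of the members studied as chromatin regulators and tumour suppressors, PRDM2 (RIZ1), a histone methyltransferase, had a 2D sort value of 0.45 ± 0.32 (SE). Its differences within replicate numbers 1 to 3 were 0.079, 1.09 and 0.18, and the PRDM2 value was 0.10 without 2D TNNT2+ replicate 2 and 0.091 with edgeR. In replicate number 2, where the difference was largest, PRDM2_7 had 42.7 CPM in TNNT2- and no read in TNNT2+ cells (which allows up to 0.129 CPM). PRDM4, which binds the neurotrophin receptor and recruits an arginine methyltransferase, lay toward TNNT2+. Its guides summed to 325.2, 429.6 and 431.2 CPM in TNNT2- and to 462.1, 461.3 and 479.6 CPM in TNNT2+ replicates 1 to 3, with no overlap. Groups did not overlap on the log2 scale for 1 PRDM gene in this direction (PRDM4), against 3.64% of all genes, and for 1 in the other (PRDM6), against 4.81%. For PRDM4 the groups almost met, at 9.721 in TNNT2- replicate 3 and 9.73 in TNNT2+ replicate 2. The PRDM4 value was -0.39 ± 0.31 (SE; adjusted p = 0.963, limma), with 5 of 7 guides lower. PRDM4 differences were -0.49, -0.20 and -0.46 within replicate numbers 1 to 3, the narrowest spread among the genes with a value beyond 0.3 to either side. PRDM10, an activator of FLCN, had -0.21 ± 0.27 (log2 fold change ± SE). Of its 7 guides 4 were higher in TNNT2- cells, with a guide median of 0.14. In replicate number 1 PRDM10_2 had 0.0881 CPM in TNNT2- and 30.1 CPM in TNNT2+ cells. Without 2D TNNT2- replicate 1 the PRDM10 value was -0.016, and with edgeR on all libraries it was -0.020. PRDM9, which directs meiotic recombination, had 0.13 ± 0.26 (SE). PRDM9 guides stayed within 483.3 to 530.7 CPM in 2D TNNT2- and 387.6 to 518.2 CPM in 2D TNNT2+ libraries.

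The 3D sort asks the same question in 3D cultures, where the errors were larger. No PRDM gene passed (0 of 11, against 0% of 1621 genes tested, limma), none had an unadjusted p under 0.05 (against 2.9% of all genes) and none had groups without overlap (against 7.53%). edgeR called 0 genes as well. Gene values ran from -0.62 to 1.25 with a median of 0.17, beside -0.082 over all genes and a median SE of 0.78. Above 0 lay 6 of 11 genes, against 45.8% of all genes, and 5 of 11 had the same sign as in 2D, against 49% of all genes. Without the 3 thin libraries (3D TNNT2- replicates 2 and 3 and TNNT2+ replicate 3) the PRDM median was 0.22, beside 0.038 over all genes. In that fit 7 of the 11 PRDM genes changed sign, and sign changes over all genes were not counted. It holds TNNT2- replicate 1 as the only TNNT2- library, so each 3D sort value without the thin libraries rests on that library. Of the 11 genes, 5 kept 1 sign when each 3D library was left out in turn.

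PRDM16 guides summed to 526.9, 444.4 and 278.0 CPM in TNNT2- and to 757.3, 223.7 and 426.7 CPM in TNNT2+ replicates 1 to 3, and the groups overlap. The log2 fold change was -0.30 ± 1.04 (SE; 95% interval -2.46 to 1.87; adjusted p = 0.993, limma), and it was 0.22 without the 3 thin libraries. PRDM16_1 had -4.30 ± 1.95 (SE; unadjusted p = 0.0274, adjusted p = 1, limma), with 105, 26.5 and 0.158 CPM in TNNT2- and 384, 56.0 and 297 CPM in TNNT2+ cells. It was the only PRDM guide of 77 with an unadjusted p under 0.05, against 1.29% of 11331 guides, and none of the 77 passed after adjustment, against 0% of all. For 6 of the 77 the groups did not overlap, against 7.21% of all guides. PRDM16_3 lay the other way, at 3.75 ± 2.29 (SE), with 62.7, 185 and 185 CPM in TNNT2- and 73.0, 25.5 and 0.0816 CPM in TNNT2+ cells. That is opposite to its value in 2D. Each of these values includes a library with the guide near 0. In 3D TNNT2- replicate 3, 4 of 7 PRDM16 guides were under 10 reads, and in 3D TNNT2+ replicate 3 also 4 of 7. The other PRDM16 guides in 3D had -2.97 ± 2.42 (PRDM16_6), -1.92 ± 2.20 (PRDM16_4), 2.07 ± 2.91 (PRDM16_7), 1.45 ± 2.91 (PRDM16_2) and -0.15 ± 2.75 (PRDM16_5; log2 fold change ± SE).

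PRDM10 had the highest value in 3D. Its guides summed to 834.9, 512.8 and 937.6 CPM in TNNT2- and to 563.8, 318.2 and 471.0 CPM in TNNT2+ replicates 1 to 3, and TNNT2- replicate 2 lies within the TNNT2+ range. The log2 fold change was 1.25 ± 0.90 (SE; 95% interval -0.63 to 3.13; adjusted p = 0.99, limma), with differences of 0.77, 0.034 and 2.95 within replicate numbers. PRDM10_5 stood highest by p among its guides, at 2.87 ± 1.85 (SE), with 246, 62.6 and 250 CPM in TNNT2- and 154, 92.1 and 0.204 CPM in TNNT2+ cells. With each 3D library left out the PRDM10 value ranged from 0.67 (without TNNT2- replicate 3) to 2.01 (without TNNT2- replicate 2). Without the 3 thin libraries, which leaves a single TNNT2- library, the PRDM10 value was 1.34.

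PRDM2 followed at 1.01 ± 0.76 (log2 fold change ± SE). PRDM2 guides summed to 635.4, 609.1 and 556.3 CPM in TNNT2- and to 529.5, 517.7 and 266.2 CPM in TNNT2+ replicates 1 to 3, with no overlap of the sums. On the mean log2 scale the groups overlapped, with differences of -0.15, 0.53 and 2.64 within replicate numbers 1 to 3. Without 3D TNNT2+ replicate 3 the PRDM2 value was 0.13, and without all 3 thin libraries it was -0.078.

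For the remaining members the 95% intervals in 3D include 0. PRDM6 had 0.70 ± 0.98, PRDM9 0.64 ± 1.14, PRDM12 0.58 ± 0.63, PRDM4 0.17 ± 0.92, PRDM8 -0.029 ± 0.78, PRDM13 -0.30 ± 0.77, PRDM1 -0.59 ± 0.69 and PRDM15 -0.62 ± 0.61 (log2 fold change ± SE). Without the 3 thin libraries PRDM6 had -0.13, PRDM12 -0.037, PRDM8 0.081, PRDM13 0.28 and PRDM15 0.22, all of the opposite sign, while PRDM9 had 0.68, PRDM4 0.29 and PRDM1 -0.31. For PRDM9 the lowest value with 1 library left out was -0.45, when TNNT2+ replicate 3 was omitted, and the highest was 1.66, when TNNT2- replicate 3 was. Both of these libraries were low for PRDM9, with mean log2 values of 6.819 in TNNT2- and 6.055 in TNNT2+ cells. Within replicate numbers 1 to 3 the PRDM9 difference was 0.26, 0.88 and 0.76. Such a shared sign in all 3 was seen for 26% of all genes. PRDM6_6 had 3.29 ± 2.20 (SE), with 53.1, 99.2 and 341 CPM in TNNT2- cells, and 81.4, 43.2 and 0.122 CPM in TNNT2+ cells, so its groups overlap. PRDM9 guides summed to between 228.7 and 862.6 CPM in TNNT2- libraries, and to between 131.8 and 594.7 CPM in the TNNT2+ group. PRDM1 guides reached 1439 CPM in 3D TNNT2+ replicate 3, against 536.3 to 720.8 CPM in the other 5 3D libraries. In that library PRDM1_1 alone had 701 CPM, while PRDM1_4, PRDM1_6 and PRDM1_7 were under 10 reads.

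The test of the difference between the sorts (3D ratio minus 2D ratio) put all 12 day 25 libraries on a common scale. No PRDM gene passed (0 of 11, against 0% of 1621 genes, limma, smallest adjusted p = 0.997) and none had an unadjusted p under 0.05 (against 1.17%). PRDM10 had the smallest p toward a higher ratio in 3D, at 1.63 ± 1.09 (SE; 95% interval -0.67 to 3.92), and PRDM15 toward a higher ratio in 2D, at -0.95 ± 0.82 (SE; 95% interval -2.66 to 0.77). Without the 3 thin libraries PRDM10 had 1.74 and PRDM15 -0.14, with a single TNNT2- library left in 3D. With single libraries left out PRDM10 ranged from 1.09 to 2.42 and PRDM15 from -1.57 to -0.32. From edgeR the values were 0.80 for PRDM10 and -0.47 for PRDM15. PRDM16 had 0.22 ± 1.28 (SE; 95% interval -2.47 to 2.90), and 0.73 without the 3 thin libraries. Differences of up to several log2 units thus lie within the intervals, and the opposite signs of PRDM15 and PRDM10 in both systems were not shown to be a difference. Of the 77 guides, 1 (PRDM16_3, 5.07 ± 2.27, SE) had an unadjusted p under 0.05, against 1.97% of 11345 guides, and 0 passed after adjustment, against 0%.

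Day 25 cells were compared with day 0 for guides more or less frequent at day 25 than in the day 0 libraries. Whether the day 0 libraries are the pool from which these differentiations started is not stated in the sources used here. Both fractions of a differentiation were averaged, which gives 3 values at day 25 against 2 at day 0. Each fraction counts equally whatever its share of the culture, so the mean need not equal the guide frequency of the whole culture. Both systems are set against the same day 0 libraries, so likeness between them is no result. Values have to be read against the median over all genes, which was 0.82 in 2D and 0.70 in 3D, beside 0.067 and 0.26 without day 0 replicate 2. With a gene's guides summed before the log, the all-gene medians were -0.40 and 0.12, and 8 of the 11 PRDM genes turned below 0 in 2D. Directions against day 0 are therefore given for the mean log2 value only.

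PRDM6 stood out in this comparison through its level at day 0. Its guides summed to 450.6 CPM in day 0 replicate 1 and to 23.71 CPM (exact 95% interval 21.86 to 25.69) in day 0 replicate 2, against 336.6 to 798.2 CPM in the 12 day 25 libraries. In day 0 replicate 2, 5 of its 7 guides had fewer than 10 reads and PRDM6_4 alone held 22.6 CPM. No other PRDM gene fell below 131.8 CPM in any library. The PRDM6 log2 fold change was 3.09 ± 1.49 (SE; adjusted p = 0.411, limma) in 2D and 2.92 ± 1.23 (SE; adjusted p = 0.436, limma) in 3D, with 7 of 7 guides higher in both. From edgeR the PRDM6 value was 1.195 in 2D and 1.416 in 3D, beside medians over all genes of -0.0090 and 0.0081. In limma without day 0 replicate 2 it was 0.57 in 2D and 0.72 in 3D, and it did not pass. Without day 0 replicate 1 it was 5.61 and 5.12, and it passed (adjusted p = 6.65e-08 and 0.0146, limma). The single remaining day 0 library is then assumed to vary like the others, and 1353 genes in 2D and 345 in 3D passed in the same fits. Of the PRDM genes 10 passed in 2D, all but PRDM2 and with PRDM1 below 0, and 2 in 3D, which were PRDM6 and PRDM15.

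No PRDM gene passed at day 25 in 2D (0 of 11, against 0% of 1621 genes, limma) and none had an unadjusted p under 0.05 (against 3.33%). Groups did not overlap for 5 of 11, all higher, against 32% of all genes. Values ran from -0.33 to 3.09 with a median of 0.97, and 10 of 11 lay above 0, against 86.8% of all genes. PRDM15 had 1.54 ± 0.77, PRDM9 1.33 ± 1.10, PRDM12 1.10 ± 0.76, PRDM8 1.05 ± 0.97, PRDM13 0.97 ± 0.78, PRDM10 0.86 ± 0.55, PRDM16 0.79 ± 0.61, PRDM4 0.74 ± 0.72, PRDM2 0.15 ± 0.42 and PRDM1 -0.33 ± 0.30 (log2 fold change ± SE). Without day 0 replicate 2 PRDM9 had -0.51, PRDM8 -0.38, PRDM13 -0.32, PRDM12 -0.030 and PRDM1 0.012, all of the opposite sign. PRDM15 then had 0.085, PRDM4 0.22, PRDM2 0.33, PRDM10 0.50 and PRDM16 0.74. With all libraries PRDM1 was the only member with a gene value below 0, and no PRDM1 guide was under 10 reads in day 0 replicate 2. Guide medians were also below 0 for PRDM4 (-0.46), PRDM10 (-0.36), PRDM2 (-0.14), PRDM13 (-0.12) and PRDM16 (-0.12), each with 3 of 7 guides higher. They were above 0 for PRDM6, PRDM8, PRDM9, PRDM12 and PRDM15. The highest PRDM16 guide, at 4.73, was PRDM16_5, which is described below.

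In 3D no PRDM gene passed at day 25 (0 of 11, against 0% of 1621 genes, limma). Above 0 lay 10 of 11, against 82.1% of all genes, and groups did not overlap for 3 of 11, all higher, against 25.7%. The unadjusted p was under 0.05 for PRDM6 (1 of 11, higher), against 11% of all genes higher. PRDM15 had 1.31 ± 0.71 (SE). It had 0.12 without day 0 replicate 2 (adjusted p = 0.999, limma) and 2.50 without day 0 replicate 1 (adjusted p = 0.0245, limma). PRDM12 had 1.26 ± 0.74, PRDM10 0.90 ± 0.78, PRDM8 0.63 ± 0.96, PRDM13 0.56 ± 0.78, PRDM4 0.55 ± 0.85, PRDM9 0.50 ± 1.18, PRDM16 0.44 ± 0.82, PRDM2 0.14 ± 0.66 and PRDM1 -0.25 ± 0.68 (log2 fold change ± SE). Without day 0 replicate 2 PRDM9 had -1.06, PRDM8 -0.52, PRDM13 -0.47 and PRDM1 0.30, all of the opposite sign, while PRDM10 had 0.79, PRDM16 0.57, PRDM2 0.54, PRDM12 0.39 and PRDM4 0.27. Without the 3 thin 3D libraries PRDM10 had -0.13 and PRDM1 -0.92. Day 25 replicate 3 is then gone and replicate 2 is its TNNT2+ fraction alone, so the cell fractions change too. In that fit PRDM6 had 2.58, PRDM15 1.33, PRDM9 1.02, PRDM8 0.87, PRDM13 0.72, PRDM12 0.59, PRDM4 0.48, PRDM16 0.23 and PRDM2 0.10.

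A PRDM16 guide was nearly absent from the day 0 libraries and present in most day 25 libraries. PRDM16_5 had no read in day 0 replicate 1 (which allows up to 0.105 CPM) and 1 read in day 0 replicate 2. It had 19.2, 6.75 and 13.6 CPM in 2D TNNT2- and 19.5, 6.09 and 29.4 CPM in 2D TNNT2+ replicates 1 to 3. In 3D it had 28.5, 11.0 and 0.0631 CPM in TNNT2- and 51.1, 12 and 0 CPM in TNNT2+ replicates 1 to 3 (the last allows up to 0.122 CPM). It was present in all day 25 libraries but the 2 that had lost the most guides. Its fitted log2 fold change in 2D was 4.73 ± 1.49 (SE; unadjusted p = 0.0072, adjusted p = 0.515, limma), a value that depends on the pseudocount. The positive PRDM16 gene values at day 25 include this guide. The median over the PRDM16 guides was -0.12 in 2D and -0.40 in 3D, with 3 of 7 guides higher in each. PRDM16_5 was the only PRDM guide under 10 reads in both day 0 libraries, as 94 of all 11364 guides were, and 44 of those 94 had at least 10 reads in all 6 2D libraries. None of the 77 PRDM guides passed at day 25 in 2D (against 0% of 11344) or in 3D (against 0.00882% of 11337). At an unadjusted p under 0.05 stood PRDM16_5 alone in 2D (1 of 77, against 2.47% of all guides higher) and none in 3D (0 of 77, against 4.45% higher; limma). Next by p were PRDM15_1 at 1.76 ± 0.83 and PRDM4_1 at 4.44 ± 2.26 in 2D, while in 3D PRDM9_5 had 3.43 ± 1.80, PRDM12_3 3.88 ± 2.04 and PRDM4_5 3.58 ± 2.04 (log2 fold change ± SE).

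Genes related to the family were looked at beside it, from lists chosen with earlier results of these data known. The 2 PR domain genes listed under other names, MECOM (a blood stem cell regulator) and ZNF408, were both measured. They had 2D sort values of -0.073 ± 0.23 and 0.69 ± 0.32, and 3D sort values of -1.36 ± 0.66 and 0.24 ± 0.69 (log2 fold change ± SE). Neither passed (adjusted p from 0.963 to 0.992, limma), and ZNF408 had an unadjusted p of 0.0444 in 2D. The 11 measured of 16 partners and targets of PRDM16 in fat and heart had a median of -0.0049 in 2D and -0.47 in 3D, with 5 and 2 genes above 0 and 0 passing. Over all genes the medians were 0.045 and -0.082, with 56.9% and 45.8% above 0 and 0% passing. Among them the cardiac factor TBX5 had 0.079 ± 0.22 and -0.44 ± 1.12, and PPARG, the fat cell regulator, -0.45 ± 0.30 and -0.29 ± 1.04. The 9 measured regulators and partners of PRDM1 had medians of 0.041 and -0.054, with 6 and 4 genes above 0. The 9 neural partners of PRDM8, PRDM12 and PRDM13 had 0.11 and -0.34, also with 6 and 4 above 0, and none of either list passed. BHLHE22 among them had 0.19 ± 0.27 in 2D and -0.74 ± 0.75 in 3D (SE). At day 25 none of these genes passed in either system. List medians were there 1.10, 1.12, 1.02 and 0.96 in 2D and 1.37, 1.18, 1.27 and 0.48 in 3D, in the same order, beside 0.82 and 0.70 over all genes.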

How the data were processed

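The authors deposited, for 2D and for 3D, a table of normalized signal per guide; guide analysis used MAGeCK and build hg38, per the submitters' processing notes, with version and settings not given in the sources used here. Each deposited signal value is a read count divided by a size factor per library: 100% of values were whole multiples of the column's smallest value above 0 (within 0.001). In 8 of 16 columns there were enough low values to test this, and recovered reads gave totals, CPM and the count test. The gene name rule also takes in 2 genes that are not reported here and that stayed in the fits over all guides. Members, lists and tests were chosen with earlier results of these data known.

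Values were tested as log2(value + 10) in limma (version 3.58.1; trended eBayes), over all guides with a mean value of at least 10, and per gene over the mean log2 value of its guides (at least 3), with Benjamini-Hochberg adjustment over all of them and calls at 0.05. Fold changes on this scale understate changes of low guides. The sort fits held the 6 libraries of a system. Reads scaled together by median ratios were used for 3D against 2D, as the tables were normalized separately. A shared replicate number is taken as 1 differentiation, since the protocols describe 3 biological replicates, each sorted. Deviations of same-numbered fractions correlated at 0.0767, 0.108 and 0.126 in 2D and 0.109, 0.056 and 0.0735 in 3D. Unlike-numbered fractions gave -0.0625 to -0.0399 in 2D and -0.0781 to 0.0268 in 3D, all lower. Deviations cancel within a group, so these values are not independent. The same-numbered values were weak and not all above 0.1, so this pairing rests on the protocols. The origin of the day 0 libraries in separate cultures is not stated, and p-values may measure technical spread there. Named were all 11 genes, all PRDM16 guides, the 5 PRDM guides with the smallest p per sort and 3 per system at day 25. Alternatives were pseudocounts of 1 and 100, no filter, control guide and library total scaling, summed guides, edgeR (version 4.0.16) on recovered reads, a replicate block, fits without 3 thin libraries and each library left out. Library total scaling was chosen after seeing the data. Scripts were tested on simulated reads.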

Additional observations from a re-analysis of the deposited data

How the results depend on the processing

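Under the alternatives without day 0 replicate 1 left out, no PRDM gene and no PRDM guide passed in any comparison, edgeR on recovered reads included, which called 0 genes in each. With a replicate block 0 PRDM genes and 0 PRDM guides passed in both sorts and in their difference, with smallest adjusted p among the genes of 0.896, 0.847 and 0.868 (limma), so the pairing changed no call. Without day 0 replicate 1, 10 PRDM genes and 54 PRDM guides passed at 2D day 25, and 2 and 7 at 3D day 25, beside 1353 genes and 8458 guides over the whole table in 2D and 345 and 1266 in 3D, while each other omitted library left 0, so that these counts ranged from 0 to 10, 0 to 54, 0 to 2 and 0 to 7. The median over all genes moved from 0.82 to 0.98 with control guide scaling and to 1.13 with library total scaling at 2D day 25, from 0.70 to 0.55 with library totals at 3D day 25, and from -0.082 to 0.062 with library totals in the 3D sort. Of 723 gene values under alternatives, 640 kept their sign and their side of the threshold. For the difference between sorts these values cover PRDM10, PRDM15 and PRDM16 only. Changes in size were not part of this count. The values that changed sign had not passed in the first place, and the causes were not tested. With summed guides, in the 2D sort PRDM8 was -0.086. With summed guides, in the 3D sort PRDM4 was -0.22, PRDM6 -0.49 and PRDM8 0.18. With summed guides, in 2D day 25 PRDM2 was -0.21, PRDM4 -0.68, PRDM8 -0.47, PRDM9 -0.069, PRDM10 -0.24, PRDM12 -0.42, PRDM13 -0.34 and PRDM16 -0.25. With summed guides, in 3D day 25 PRDM1 was 0.30 and PRDM8 -0.043. With edgeR on recovered reads, in the 2D sort PRDM8 was -0.067. With edgeR on recovered reads, in the 3D sort PRDM6 was -0.18, PRDM8 0.48 and PRDM13 0.21. With edgeR on recovered reads, in 2D day 25 PRDM4 was -0.28, PRDM8 -0.045 and PRDM12 -0.021. With edgeR on recovered reads, in 3D day 25 PRDM1 was 0.084 and PRDM8 -0.096. Without the 3 thin 3D libraries, in the 3D sort PRDM2 was -0.078, PRDM6 -0.13, PRDM8 0.081, PRDM12 -0.037, PRDM13 0.28, PRDM15 0.22 and PRDM16 0.22. Without the 3 thin 3D libraries, in 3D day 25 PRDM10 was -0.13. With a pseudocount of 100, in the 3D sort PRDM8 was 0.064. With a pseudocount of 100, in 2D day 25 PRDM2 was -0.0065. With library total scaling, in the 3D sort PRDM8 was 0.13. With library total scaling, in 2D day 25 PRDM1 was 0.092. With each library left out in turn, these values crossed 0. In the 2D sort PRDM1 ranged from -0.079 to 0.23, PRDM8 from -0.043 to 0.78 and PRDM13 from -0.30 to 0.43. In the 3D sort PRDM4 ranged from -0.33 to 0.43, PRDM6 from -0.38 to 1.61, PRDM8 from -0.32 to 0.44, PRDM9 from -0.45 to 1.66, PRDM13 from -0.74 to 0.57 and PRDM16 from -0.80 to 0.46. In 2D day 25 PRDM1 ranged from -0.67 to 0.012, PRDM2 from -0.15 to 0.33, PRDM8 from -0.38 to 2.48, PRDM9 from -0.51 to 3.17, PRDM12 from -0.030 to 2.22 and PRDM13 from -0.32 to 2.27. In 3D day 25 PRDM1 ranged from -1.30 to 0.30, PRDM2 from -0.63 to 0.54, PRDM4 from -0.047 to 0.84, PRDM8 from -0.52 to 1.77, PRDM9 from -1.06 to 2.06, PRDM10 from -0.27 to 1.02, PRDM13 from -0.47 to 1.60 and PRDM16 from -0.31 to 0.57. In the difference between sorts only PRDM10, PRDM15 and PRDM16 were followed under the alternatives, and PRDM16 ranged from -0.57 to 1.14. In the 3 libraries that lost most guides, 27 to 38 of the 77 PRDM guides were under 10 reads.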
